A study of Mus musculus with 29 samples.

Results

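Binding of the hair cell (HC) transcription factors Atoh1, Pou4f3 and Gfi1 was examined around 8 genes for later HC regulators, namely Insm1, Ikzf2, Tbx2, Rfx1, Rfx2, Rfx3, Rfx4 and Rfx7. These 8 genes were taken from 22350 annotated protein-coding genes. Every kept ChIP-seq summit that lay in the body of one of the genes or within 50 kb of it in the mouse genome build mm9 was collected. This gave 150 of the 175162 kept summits in 9 peak lists. A summit is the point of highest signal in a peak, and a kept summit is one that the authors retained in their summit lists. Summits of different lists were joined into 1 site where the 300 bp around them shared at least 1 bp, which gave 76 of 78333 sites.

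Mouse embryonic stem cells of the A2loxCre line carried a doxycycline (Dox)-inducible cassette that ended in the fluorescent protein mVenus. The cassette held Atoh1 (line iAtoh1), Pou4f3 (iPou4f3), Gfi1 with Atoh1 (iG+A), Gfi1 with Pou4f3 (iG+P), Pou4f3 with Atoh1 (iP+A), or Gfi1, Pou4f3 and Atoh1 together (iGPA). Embryoid bodies, the clumps in which such cells differentiate, were given Dox at 2 µg/ml from day 4 for 48 h and were collected on day 6. Atoh1 with a FLAG tag was precipitated in the 4 lines that carried it, Pou4f3 with a MYC tag in its 4 lines, and Gfi1, through an antibody to the protein itself, in iGPA. The ChIP material came from whole embryoid bodies, and no sorting for mVenus is described for it, so cells that did not express the cassette may be included. No HC from the ear was assayed. The replicates of a line were different clones, and 2 libraries were made for each ChIP group, and 1 for Gfi1.

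Peaks had been called on merged replicates, so a list has no spread between replicates and no test between lines was possible. Counts are therefore given beside the share of all gene windows that pass the same rule, and fold enrichment with a 95% interval that covers counting error only. Fold enrichment is the number of fragments at the summit over the background that the peak caller used there, with 1 added to each. At most summits this background was 1 usual value per list and not a level particular to the place. The usual value was 5.87 to 8.30 fragments in the Atoh1 and Pou4f3 lists and 3.55 for Gfi1. Among the 150 summits fold enrichment ranged from 2.38 to 12.2, on 16 to 98 fragments with a median of 26. The lists held 15568 to 32632 kept summits for Atoh1 and Pou4f3 and 3012 for Gfi1. Every one of the 7 lists from lines with the Atoh1 cassette had a peak over the coding exon of Atoh1, against 0 of 2 lists from lines without it.

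Atoh1 is the basic helix-loop-helix factor that starts HC differentiation and binds E-boxes. Pou4f3 is a POU-homeodomain factor needed for the maturation and survival of HCs, and Gfi1 is a zinc finger repressor needed for the same later steps. The paper proposes that Gfi1 also enhances gene activation by Atoh1 at sites where both proteins interact. Of the 8 genes, Insm1 encodes a zinc finger factor that holds early outer HCs in their fate, and Ikzf2 encodes Helios, a zinc finger factor of outer HC maturation. Tbx2 encodes a T-box factor that specifies inner HCs. The Rfx genes encode winged helix factors that bind X-box sequences in the promoters of ciliary genes, and Rfx1 and Rfx3 are needed by HCs as they mature.

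The sequence around 1 site of each gene is shown first, since these sites recurred in the most lists for their gene and carry most of the comparisons that follow. Each is 200 bp of mm9, plus strand, centred on the summit with the highest fold enrichment at the site. Capitals mark CAGATG or CAGCTG, the E-box cores favoured by Atoh1, the longer Atoh1 E-box pattern AtEAM, or the Pou4f pattern ATAATTAAT with up to 1 mismatch, each on either strand.
Rfx1 site, chr8:86545147-86545346: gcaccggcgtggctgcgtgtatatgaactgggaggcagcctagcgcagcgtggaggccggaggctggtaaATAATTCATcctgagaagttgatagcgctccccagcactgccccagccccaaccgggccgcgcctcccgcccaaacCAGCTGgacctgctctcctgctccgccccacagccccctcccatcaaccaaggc
Rfx2 site, chr17:56901605-56901804: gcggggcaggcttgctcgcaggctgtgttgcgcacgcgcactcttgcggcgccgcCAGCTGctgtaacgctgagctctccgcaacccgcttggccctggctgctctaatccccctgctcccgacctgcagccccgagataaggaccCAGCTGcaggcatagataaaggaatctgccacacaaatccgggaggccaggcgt
Insm1 site, chr2:146042527-146042726: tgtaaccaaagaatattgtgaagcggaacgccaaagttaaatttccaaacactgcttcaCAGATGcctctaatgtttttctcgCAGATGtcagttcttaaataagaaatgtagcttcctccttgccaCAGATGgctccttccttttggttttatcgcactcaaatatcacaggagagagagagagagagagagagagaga
Tbx2 site, chr11:85633416-85633615: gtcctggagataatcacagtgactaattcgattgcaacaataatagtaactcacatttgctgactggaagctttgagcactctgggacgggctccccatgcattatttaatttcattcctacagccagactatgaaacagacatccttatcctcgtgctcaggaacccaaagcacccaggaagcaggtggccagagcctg
Rfx3 site, chr19:27993797-27993996: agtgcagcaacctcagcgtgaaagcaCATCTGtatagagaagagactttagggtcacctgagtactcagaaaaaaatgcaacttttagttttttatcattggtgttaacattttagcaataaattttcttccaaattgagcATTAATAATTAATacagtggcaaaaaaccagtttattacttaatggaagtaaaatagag
Rfx4 site, chr10:84170696-84170895: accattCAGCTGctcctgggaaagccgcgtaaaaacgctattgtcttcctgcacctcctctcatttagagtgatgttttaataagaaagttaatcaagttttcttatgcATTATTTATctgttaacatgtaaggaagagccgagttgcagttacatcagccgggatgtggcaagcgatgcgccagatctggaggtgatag
Rfx7 site, chr9:72337985-72338184: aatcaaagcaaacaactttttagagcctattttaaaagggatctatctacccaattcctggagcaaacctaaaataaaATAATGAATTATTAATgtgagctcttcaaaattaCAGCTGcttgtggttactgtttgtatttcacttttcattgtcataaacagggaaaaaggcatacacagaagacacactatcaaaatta
Ikzf2 site, chr1:69733727-69733926: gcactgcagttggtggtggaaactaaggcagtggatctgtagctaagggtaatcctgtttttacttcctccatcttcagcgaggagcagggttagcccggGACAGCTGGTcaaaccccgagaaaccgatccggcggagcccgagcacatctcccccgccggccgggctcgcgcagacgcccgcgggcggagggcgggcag
The E-box cores stood in 7 of the 8 windows and the Pou4f pattern in 4 of 8. In windows of 250 bp, the E-box cores were present at 65.8% of all Atoh1 summits and in 27.7% of windows 1 kb to each side. The Pou4f pattern was present at 44.1% of all Pou4f3 summits. The 8 windows were selected by their lists and fold, and the E-box share over all Pou4f3 summits is not given here. The 4 windows with the Pou4f pattern were those of Rfx1, Rfx3, Rfx4 and Rfx7, and each was centred on a Pou4f3 summit. AtEAM was found only in the Ikzf2 window, where it overlapped the E-box core. The Tbx2 window, also centred on a Pou4f3 summit, held none of these patterns, which says only that these letters were absent from those 200 bp.

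The number of genes with at least 1 summit followed the list. Atoh1 had a summit in the windows of 8 genes in iGPA (72.2% of all protein-coding gene windows had one), 6 in iP+A (62.7%), 7 in iG+A (65.8%) and 6 in iAtoh1 (53.1%). Pou4f3 had one at 6 genes in iGPA (63.2%), 6 in iP+A (58.8%), 7 in iG+P (76.7%) and 7 in iPou4f3 (72.8%). Gfi1 had one at 4 genes (23.2%), which were Insm1, Rfx2, Rfx3 and Rfx7. The windows of the 8 genes had a median of 173 kb, against 115 kb for all protein-coding genes, and a longer window has more room for a summit.

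**Figure D1:**
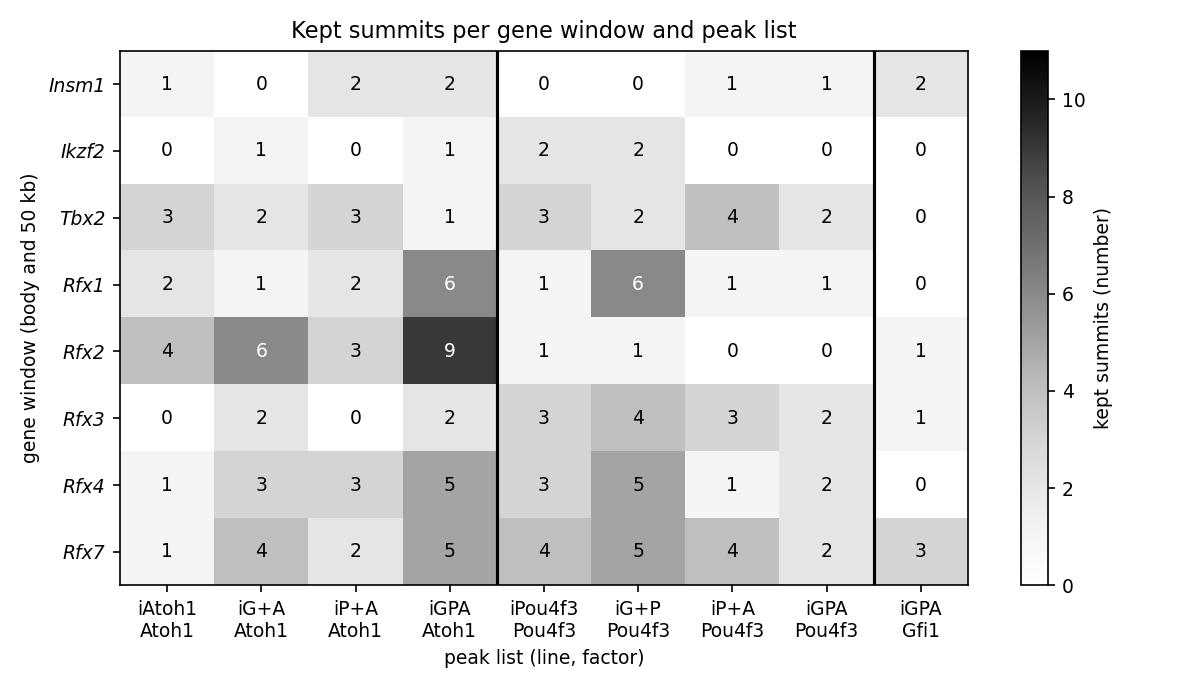
Number of kept summits in the window of each gene (rows) in each of the 9 peak lists (columns), with Atoh1, Pou4f3 and Gfi1 lists separated by vertical lines. The highest count was 9, for Atoh1 at Rfx2 in iGPA, and Pou4f3 at Rfx2 reached at most 1 in any list.

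In total the 4 Atoh1 lists held 77 summits near the 8 genes and the 4 Pou4f3 lists 66. Atoh1 had 31 summits in iGPA, 15 in iP+A, 19 in iG+A and 12 in iAtoh1. Pou4f3 had 10 in iGPA, 14 in iP+A, 25 in iG+P and 17 in iPou4f3, so that iGPA had the highest count of the Atoh1 lists and the lowest of the Pou4f3 lists. For Pou4f3 this order turned among peaks with −log10 p of 10 or more, where iGPA and iG+P each had 8 summits and iP+A and iPou4f3 each had 5. Per Mb of window, Atoh1 in iGPA reached 20.1 summits beside 13.7 over the windows of all protein-coding genes, a ratio of 1.47. In the other 3 Atoh1 lists this ratio was 0.988 to 1.15. Pou4f3 in iGPA had 6.48 summits per Mb beside 8.78, a ratio of 0.738, and the other Pou4f3 lists had ratios of 0.985 to 1.11. Gfi1 had 7 summits, or 4.54 per Mb beside 1.58. When each Atoh1 and Pou4f3 list was cut to its 15568 strongest peaks, the length of the shortest list, Atoh1 in iGPA fell to 17 summits, against 10 in iP+A, 14 in iG+A and 12 in iAtoh1. The Atoh1 counts over the full lists had the same order as the lengths of the lists. The Pou4f3 counts did not in iGPA, with 10 summits in a list of 18751, beside 14 in a list of 17082 in iP+A. The part that list length had in the counts over the full lists was not tested further.

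**Figure D2:**
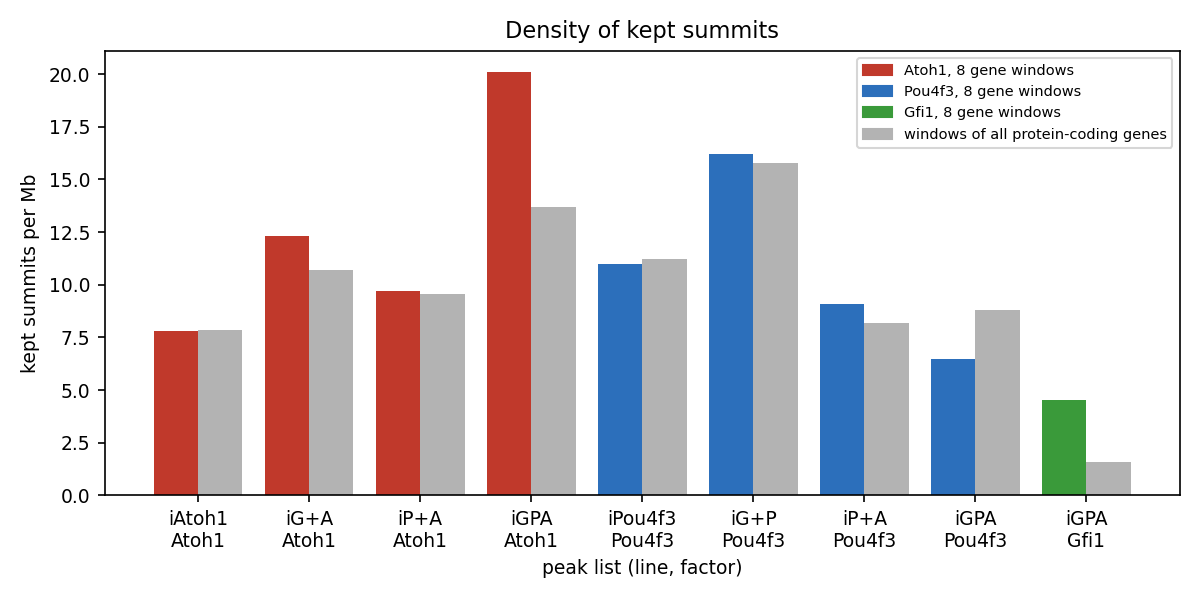
Kept summits per Mb in the windows of the 8 genes (coloured bars) and in the joined windows of all protein-coding genes (grey bars) for each peak list. The 2 bars lie close together in 6 of the 9 lists, and the bar of the 8 genes is the higher for Atoh1 and Gfi1 in iGPA and the lower for Pou4f3 in iGPA.

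Most summits lay away from the starts of the 8 genes. Of the 77 Atoh1 summits, 36 were in introns, 20 of them in an intron of one of the 8 genes, and 34 were intergenic. Of the 66 Pou4f3 summits, 35 were in introns and 24 intergenic. Within 1 kb of any annotated start there were 17 Atoh1, 23 Pou4f3 and 4 Gfi1 summits. The start nearest to the summit belonged to the gene itself for 18 of 77 Atoh1, 29 of 66 Pou4f3 and 3 of 7 Gfi1 summits. The same counts over all summits of the lists are not given here, so these positions cannot be called particular to the 8 genes. The windows of Rfx1 and Rfx2 held 8 and 5 other protein-coding genes, while those of Ikzf2 and Rfx3 held none. A site in a shared window cannot be assigned to 1 gene from these data.

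**Figure D3:**
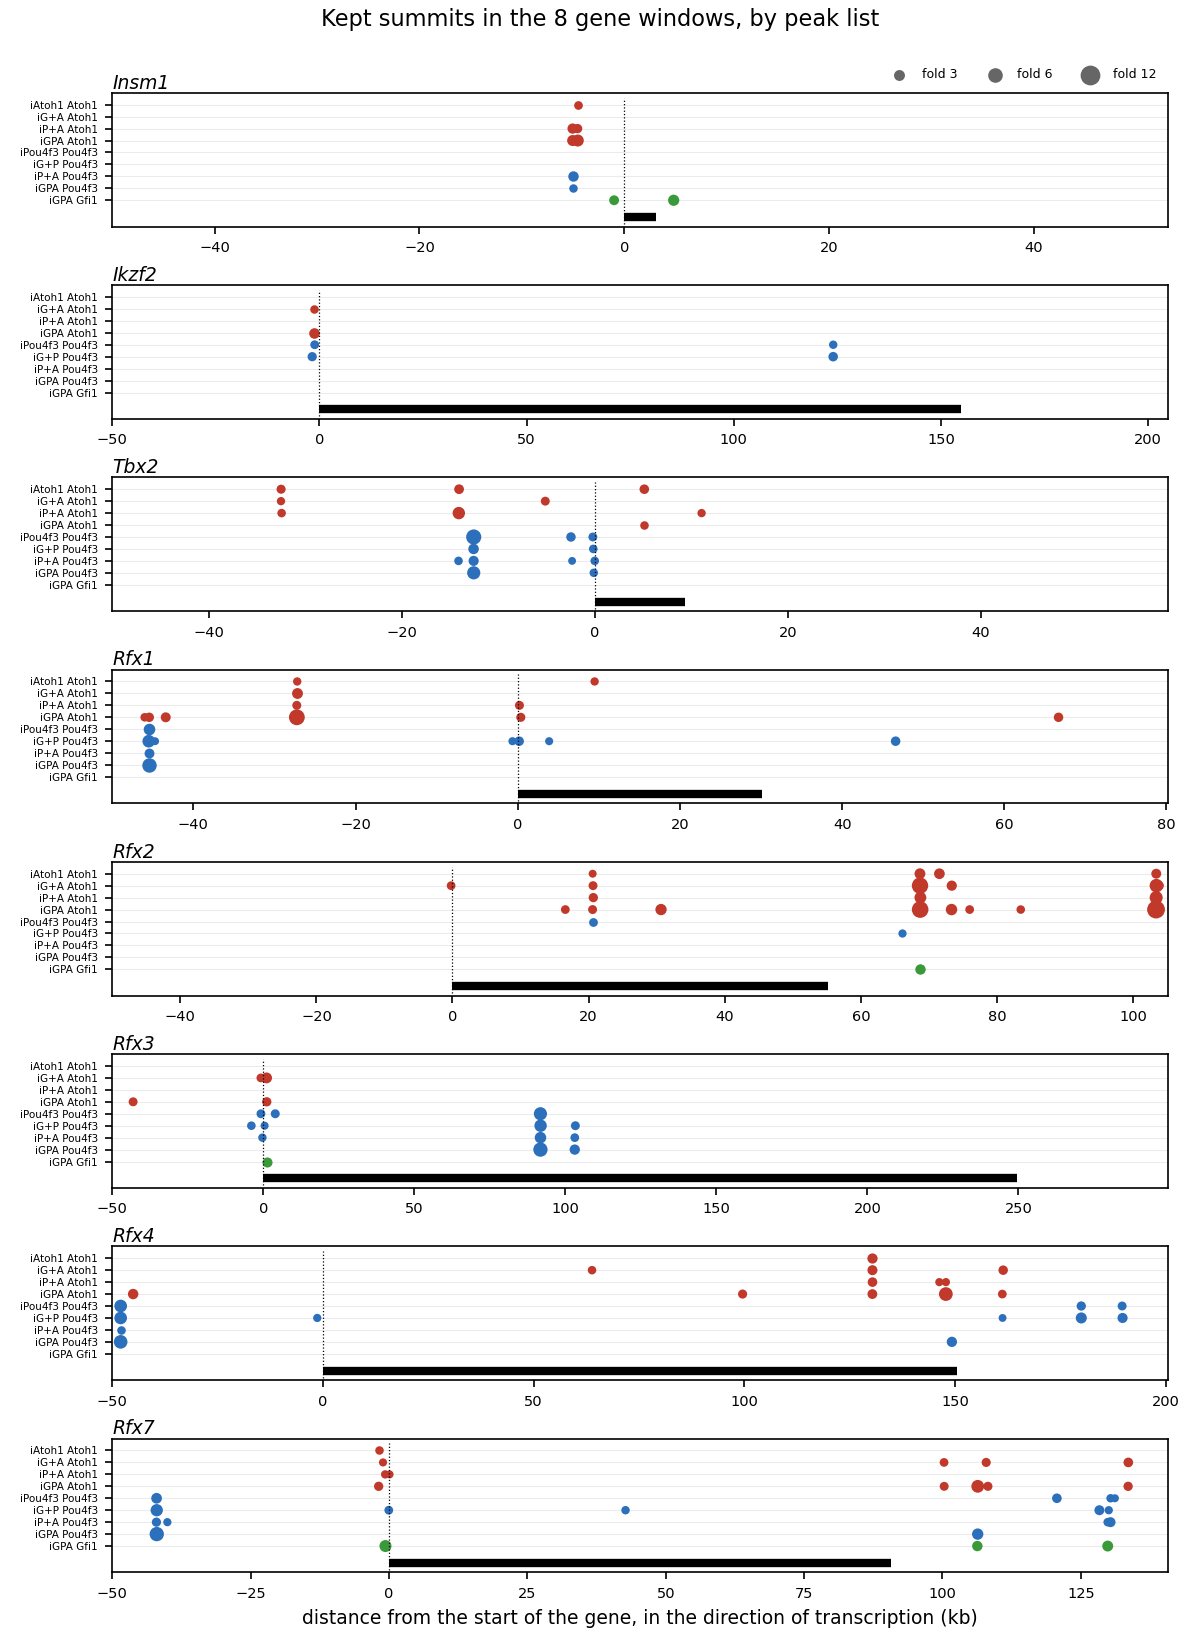
Kept summits around each of the 8 genes, by distance from the start of the gene in kb, with 1 line per peak list (Atoh1 red, Pou4f3 blue, Gfi1 green), dot area in proportion to fold enrichment, and the gene body as a black bar. Columns of dots mark sites that recur between lists, such as Atoh1 at 68.7 kb from the start of Rfx2 and Pou4f3 at 91.8 kb from the start of Rfx3.

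Insm1, a single-exon gene of 3.1 kb on chromosome 2, had 9 summits at 4 sites. A pair of neighbouring intergenic sites lay 5.0 and 4.5 kb upstream, at chr2:146042473-146042824 and chr2:146042950-146043277, both nearest to the start of 4930529M08Rik. At the first, the sequence of which is printed above with 3 CAGATG matches, Atoh1 had a fold enrichment of 4.09 (2.91 to 5.59) in iP+A and 4.68 (3.33 to 6.4) in iGPA. Pou4f3 was at the same place with 4.19 (2.97 to 5.76) in iP+A and 2.77 (1.7 to 4.29) in iGPA. The site was thus listed in the lines with both Pou4f3 and Atoh1 and in neither iAtoh1, iG+A, iPou4f3 nor iG+P. At the second, Atoh1 had 2.93 (1.9 to 4.34) in iAtoh1, 3.33 (2.28 to 4.71) in iP+A and 5.54 (4.06 to 7.39) in iGPA. The intervals of iAtoh1 and iGPA overlapped. Gfi1 had a summit 982 bp upstream of the Insm1 start with 3.74 (2.23 to 5.93), and a second at 4837 bp downstream of it, beyond the 3′ end, with 4.84 (3.08 to 7.28). Atoh1 in iG+A had 0 kept summits in the Insm1 window.

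Ikzf2, on the minus strand of chromosome 1 and 155 kb long, had 6 summits at 3 sites, the fewest of the 8 genes and 2.36 per 100 kb. Upstream of its start, at chr1:69733528-69734023, Atoh1 had 2.8 (1.76 to 4.26) in iG+A and 4.31 (3.02 to 5.97) in iGPA, and Pou4f3 had 2.97 (1.95 to 4.36) in iPou4f3. Both Atoh1 summits were in lines that also carried Gfi1, and no Gfi1 summit was listed in the window. The iG+A and iGPA lists were also the longest for Atoh1, with 20504 and 26231 kept summits. The Atoh1 summits lay above 10.7% of the iG+A list and 69.8% of the iGPA list. In the intron 124.0 kb from the start, at chr1:69608374-69608688, Pou4f3 had 2.73 (1.76 to 4.08) in iPou4f3 and 3.5 (2.41 to 4.93) in iG+P. Pou4f3 had 0 kept summits near Ikzf2 in iP+A and iGPA, the lines that also carried Atoh1. Their lists were also the shortest for Pou4f3, with 17082 and 18751 kept summits, beside 22433 in iPou4f3 and 32632 in iG+P. Of all gene windows, 58.8% had a Pou4f3 summit in iP+A and 63.2% in iGPA. At 124.0 kb the fold was higher than at 12.8% of the summits of the iPou4f3 list and at 68% of those of the iG+P list.

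Tbx2, on chromosome 11, had 20 summits at 8 sites in 109 kb, or 18.3 per 100 kb, the densest of the 8 windows. The strongest site was listed for Pou4f3 in all 4 of its lines, at chr11:85633352-85633665, 12.5 kb upstream and in an intron of the neighbouring gene Bcas3. Pou4f3 there had 8.8 (6.92 to 11) in iPou4f3, 4.27 (3.05 to 5.82) in iG+P, 3.96 (2.78 to 5.49) in iP+A and 6.7 (4.93 to 8.91) in iGPA. The interval in iPou4f3 lay above those in iG+P and iP+A and overlapped that in iGPA. Pou4f3 was also listed in all 4 lines at the Tbx2 start, with 2.77 in iGPA, 2.83 in iP+A, 2.85 in iG+P and 3.03 in iPou4f3, and these 4 intervals overlapped. In that order the 4 summits lay above 1.83%, 23.4%, 35.7% and 33.9% of their lists. The iPou4f3 summit was nearer to the start of 2610027K06Rik than to that of Tbx2.

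Atoh1 near Tbx2 was strongest 14.1 kb upstream, at chr11:85631791-85632148, with 3.66 (2.49 to 5.21) in iAtoh1 and 5.92 (4.47 to 7.69) in iP+A. Pou4f3 in iP+A shared the site with 2.83 (1.85 to 4.16). The site was absent from the iG+A and iGPA lists, the lines with Gfi1. In iGPA, Atoh1 had 1 summit in the Tbx2 window, 5.1 kb from the start in an intron, with 2.83 (1.82 to 4.22), beside 3 summits in iP+A, 2 in iG+A and 3 in iAtoh1. Tbx2 was the only one of the 8 genes at which Atoh1 had fewer summits in iGPA than in iAtoh1.

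Rfx1, on chromosome 8, had 20 summits at 11 sites, 8 of which were in 1 list only. Atoh1 was listed in all 4 lines at chr8:86563334-86563689, 27.2 kb upstream and in a coding exon of Il27ra, a cytokine receptor gene. Its fold was 2.69 (1.71 to 4.04) in iAtoh1, 4.54 (3.17 to 6.32) in iG+A, 3.12 (2.11 to 4.46) in iP+A and 9.6 (7.6 to 12) in iGPA. The interval in iGPA lay above the other 3. Over the 4766 sites of the series in all 4 Atoh1 lists, the fold in iGPA was a median of 1.41 times that in iAtoh1, and at this site it was 3.57 times, more than at 98.4% of them.

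Pou4f3 near Rfx1 was listed in all 4 lines at chr8:86545073-86545443, 45.5 kb upstream and 123 bp upstream of the start of Palm3. It had 5.16 (3.78 to 6.89) in iPou4f3, 6.13 (4.64 to 7.95) in iG+P, 3.74 (2.59 to 5.23) in iP+A and 8.01 (6.05 to 10.4) in iGPA. Atoh1 joined it in iGPA alone, with 3.45 (2.31 to 4.96). The interval in iGPA lay above that in iP+A and overlapped the other 2. At the start of Rfx1, which overlaps the antisense gene C330011M18Rik, Atoh1 had 3.12 in iP+A and 3.2 in iGPA and Pou4f3 had 3.5 in iG+P. Pou4f3 peaks were also called there in iPou4f3 (2.67) and iP+A (3.06) but were not kept.

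Rfx2, on the minus strand of chromosome 17, was the gene with the most Atoh1 summits, 22 of its 25, at 11 of 12 sites. Pou4f3 had 1 summit each in iPou4f3 and iG+P and 0 in iP+A and iGPA. Of the 5 sites near the 8 genes in all 4 Atoh1 lists, 3 were here. The strongest peak near any of the 8 genes was at chr17:56866836-56867189, 103.4 kb downstream of the Rfx2 start, beyond its 3′ end, with the start of Ndufa11 at 9855 bp as the nearest. Atoh1 there had 3.79 (2.59 to 5.35) in iAtoh1, 7.08 (5.32 to 9.24) in iG+A, 6.56 (5.03 to 8.42) in iP+A and 12.2 (9.91 to 14.8) in iGPA. The interval in iGPA lay above the other 3. The fold in iGPA was 3.22 times that in iAtoh1, more than at 97.1% of the 4766 sites in all 4 Atoh1 lists.

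The Rfx2 site printed above, at chr17:56901521-56901898, lay 68.7 kb from the Rfx2 start and 2469 bp upstream of the start of Dus3l, a tRNA-modifying enzyme gene. Atoh1 had 4.52 (3.2 to 6.21) in iAtoh1, 10.3 (8.13 to 12.8) in iG+A, 5.38 (4.01 to 7.08) in iP+A and 10.6 (8.48 to 13.1) in iGPA. Gfi1 was listed at the site in iGPA with 4.18 (2.57 to 6.48). The lines with Gfi1 in the cassette had the higher values, and their intervals lay above those of the lines without it. Across the 4766 sites in all 4 Atoh1 lists, the median fold was 5.66 in iGPA, 3.87 in iP+A, 4.27 in iG+A and 3.91 in iAtoh1. At this Rfx2 site the fold in iGPA was 2.34 times that in iAtoh1, more than at 87.5% of the 4766 sites. The third site, in the Rfx2 intron at chr17:56949564-56949993, had Atoh1 at 3.08 in iGPA, 3.33 in iP+A, 3.07 in iG+A and 2.44 in iAtoh1 and Pou4f3 at 2.97 in iPou4f3. The Atoh1 summit lay above 0.604% of its list in iAtoh1 and above 58.7% in iP+A. These intervals overlapped. Of the 9 Atoh1 sites of iGPA in the Rfx2 window, 6 were absent from the iAtoh1 list, among them an intronic site with 4.92 (3.54 to 6.68) in iGPA alone.

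Rfx3, on the minus strand of chromosome 19, had the longest window, 349 kb, and 17 summits, of which Pou4f3 made 12. For all 17 the nearest start was that of Rfx3. Pou4f3 was listed in all 4 lines in an intron at chr19:27993694-27994053, 91.8 kb from the start, with 6.66 (5.04 to 8.63) in iPou4f3, 5.91 (4.45 to 7.7) in iG+P, 5.09 (3.73 to 6.8) in iP+A and 7.86 (5.93 to 10.2) in iGPA. These 4 intervals overlapped. The printed sequence of this site held 2 overlapping matches of the Pou4f pattern. A second intronic site, 103.1 kb from the start, had Pou4f3 in iG+P (3.06), iP+A (2.94) and iGPA (4.08). Atoh1 had 0 kept summits near Rfx3 in iAtoh1 and iP+A, which were also the shortest Atoh1 lists, with 15568 and 18949 kept summits. In the lines with Gfi1 it was at chr19:28084356-28084713, 1.1 kb into the gene, with 4.54 (3.17 to 6.32) in iG+A and 3.33 (2.25 to 4.76) in iGPA, and Gfi1 was at the same site with 3.91 (2.4 to 6.07).

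Rfx4, on chromosome 10, had 23 summits at 12 sites. Pou4f3 was listed in all 4 lines at chr10:84170637-84170953, 48.0 kb upstream in an intron of Polr3b, an RNA polymerase III subunit gene, and the nearest start was that of Rfx4. It had 6.18 (4.63 to 8.09) in iPou4f3, 6.13 (4.64 to 7.95) in iG+P, 2.83 (1.85 to 4.16) in iP+A and 7.14 (5.3 to 9.41) in iGPA. The interval in iP+A lay below the other 3. Over the 7026 sites of the series in all 4 Pou4f3 lists, iP+A had the lowest fold at 66.6% and iGPA the highest at 64.8%.

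Atoh1 was listed in all 4 lines in an intron 130.4 kb from the Rfx4 start, with 4.03 (2.8 to 5.64) in iAtoh1, 3.87 (2.62 to 5.54) in iG+A, 3.55 (2.46 to 4.97) in iP+A and 3.69 (2.51 to 5.25) in iGPA. These 4 intervals overlapped. The fold in iGPA was 0.916 times that in iAtoh1, more than at 15.7% of the 4766 sites in all 4 Atoh1 lists. The highest Atoh1 fold near Rfx4 was at another intronic site, chr10:84366477-84366790, 147.8 kb from the start, with 7.26 (5.54 to 9.35) in iGPA and 2.58 (1.68 to 3.82) in iP+A. These 2 intervals did not overlap, and the site was absent from the iAtoh1 and iG+A lists.

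Rfx7, on chromosome 9, had the most summits and sites, 30 at 17. Pou4f3 was listed in all 4 lines at chr9:72337875-72338234, 42.0 kb upstream in an intron of Tex9, with 4.4 (3.12 to 6.04) in iPou4f3, 5.8 (4.36 to 7.57) in iG+P, 3.28 (2.22 to 4.69) in iP+A and 7.86 (5.93 to 10.2) in iGPA. The interval in iGPA lay above that in iP+A. An intergenic site at chr9:72486194-72486566, 106.4 kb from the start, was the only site near the 8 genes with all 3 factors. It was listed in iGPA alone, with Atoh1 at 6.28 (4.69 to 8.24), Pou4f3 at 4.95 (3.45 to 6.89) and Gfi1 at 4.18 (2.57 to 6.48). Neither the 3 other Atoh1 lists nor the 3 other Pou4f3 lists held it. The 250 bp around its Atoh1 summit held AtEAM and 1 Pou4f match.

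Gfi1 had its highest fold near the 8 genes just upstream of Rfx7, at chr9:72379202-72379554, with 5.56 (3.7 to 8.05), inside the divergent gene 4930509E16Rik and 260 bp from its start. Atoh1 in iP+A had 2.69 (1.76 to 3.95) at this site. This was the 1 of 7 Gfi1 summits with the Gfi1 pattern AATCACTGC or AATCACAGC in 250 bp, a pattern present at 7.01% of all 3012 Gfi1 summits and in 0.581% of the windows 1 kb to each side of them. Another Gfi1 summit near Rfx7, at chr9:72509749-72510238 and 464 bp upstream of the start of the ubiquitin ligase gene Nedd4, had 4.59 (2.92 to 6.9). Pou4f3 shared that site with 2.63 in iG+P and 2.83 in iP+A. None of the 7 Gfi1 summits lay in a short tandem repeat.

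**Figure D4:**
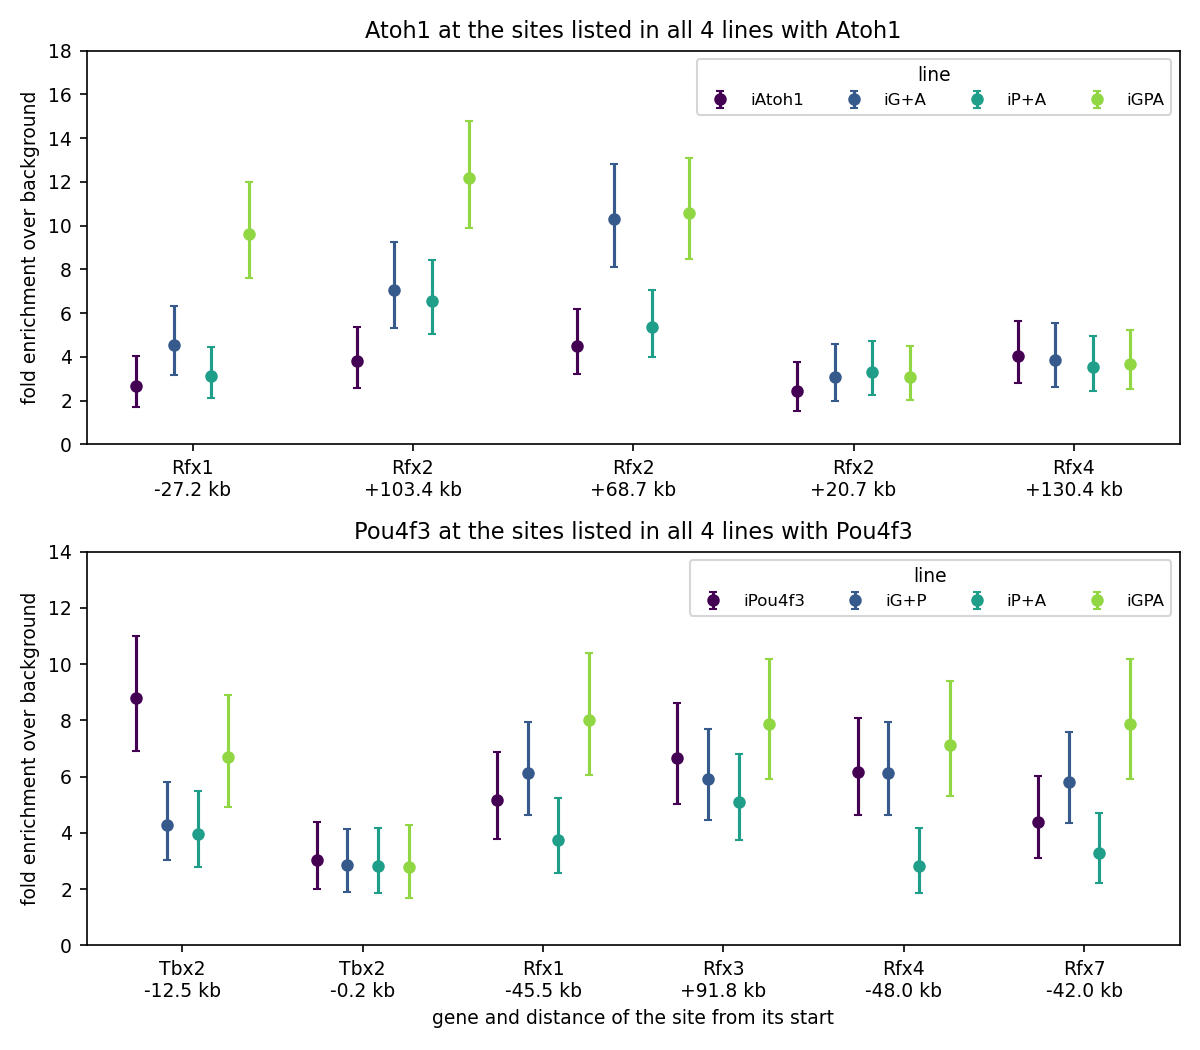
Fold enrichment over background, with 95% counting intervals, at the 5 sites listed in all 4 Atoh1 lists (top) and the 6 sites listed in all 4 Pou4f3 lists (bottom), by line. At Rfx1 and at 2 of the 3 Rfx2 sites iGPA had the highest Atoh1 fold, while at Rfx4 the 4 lines lay between 3.55 and 4.03, and Pou4f3 in iP+A was lowest at 5 of the 6 sites. Over the series, iGPA had the highest fold at 61.7% of the sites in all 4 Atoh1 lists. For Pou4f3, iP+A had the lowest fold at 66.6% of the sites in all 4 Pou4f3 lists.

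Sharing between lines and factors was then counted over the 76 sites. Of the 31 Atoh1 sites in iGPA, 8 were also in iAtoh1 (25.8%, exact 95% interval 11.9 to 44.6%), beside 32% of all iGPA Atoh1 sites in the series. The other 23 were absent from the iAtoh1 list. Conversely, 8 of the 12 iAtoh1 sites were in iGPA (66.7%, 34.9 to 90.1%), beside 54.4% in the series. Among the 31 sites, 9 were in iP+A (29%, 14.2 to 48%, beside 42.7% in the series) and 12 in iG+A (38.7%, 21.8 to 57.8%, beside 42.3%). No other Atoh1 list held 13 of them (41.9%, 24.5 to 60.9%, beside 36.2%). Sites in all 4 Atoh1 lists were found at 3 of the 8 genes, Rfx1, Rfx2 and Rfx4 (32.1% of all gene windows had one). Sites in all 4 Pou4f3 lists were found at 5 genes, Tbx2, Rfx1, Rfx3, Rfx4 and Rfx7 (36.6%).

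Pou4f3 and Atoh1 shared 3 sites in iGPA, at Insm1, Rfx1 and Rfx7 (24.7% of all gene windows had such a site). They were 9.68% (2.04 to 25.8%) of the 31 Atoh1 sites, beside 16% in the series. At the Insm1 site the Pou4f3 summit of iGPA lay above only 1.83% of its list. With −log10 p of 10 or more, 1 of the 3 sites remained. Atoh1 and Gfi1 shared 3 sites in iGPA, at Rfx2, Rfx3 and Rfx7 (10.7% of all gene windows). Of the 76 sites, 39 were in 1 list only, 51.3% (39.6 to 63%) beside 46.9% in the series. Each of these series values lay within the counting interval of the share near the 8 genes. Absence from a list means only that no kept peak was there.

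The known patterns were searched in the 250 bp around each summit, and windows 1 kb to each side of all summits served as the background. CAGATG or CAGCTG was present at 60 of 77 Atoh1 summits near the 8 genes (77.9%, 67 to 86.6%), beside 65.8% of all 81252 Atoh1 summits and 27.7% of the background windows. In iGPA it was 28 of 31 (90.3%, 74.2 to 98%), beside 72.9% of that list, and in the other lists 66.7% to 75%. AtEAM was present at 12 of 77 (15.6%, 8.32 to 25.6%), beside 16.6% of all Atoh1 summits and 2.13% of the background. Some of these summits are the same site in several lists, so they are not independent. AtEAM was searched as RMCAKMTGKY, in the letter code for alternative bases, with no mismatch. The paper counted AtEAM motifs with other software and reported larger shares of its Atoh1 peaks, so its shares and those given here cannot be compared.

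The Pou4f pattern ATAATTAAT with up to 1 mismatch was present at 29 of 66 Pou4f3 summits (43.9%, 31.7 to 56.7%), beside 44.1% of all 90898 Pou4f3 summits and 10.4% of the background. It was present at 4 of 77 Atoh1 summits (5.19%, 1.43 to 12.8%), beside 7.46% of all Atoh1 summits and 8.45% of the background, so the share was no higher than in the windows to each side. With no mismatch allowed, 9 of 66 Pou4f3 summits had it, 13.6% beside 8.09% of all. The pattern was found at sites in all 4 Pou4f3 lists near Rfx1, Rfx3, Rfx4 and Rfx7 and at neither of those near Tbx2.

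**Figure D5:**
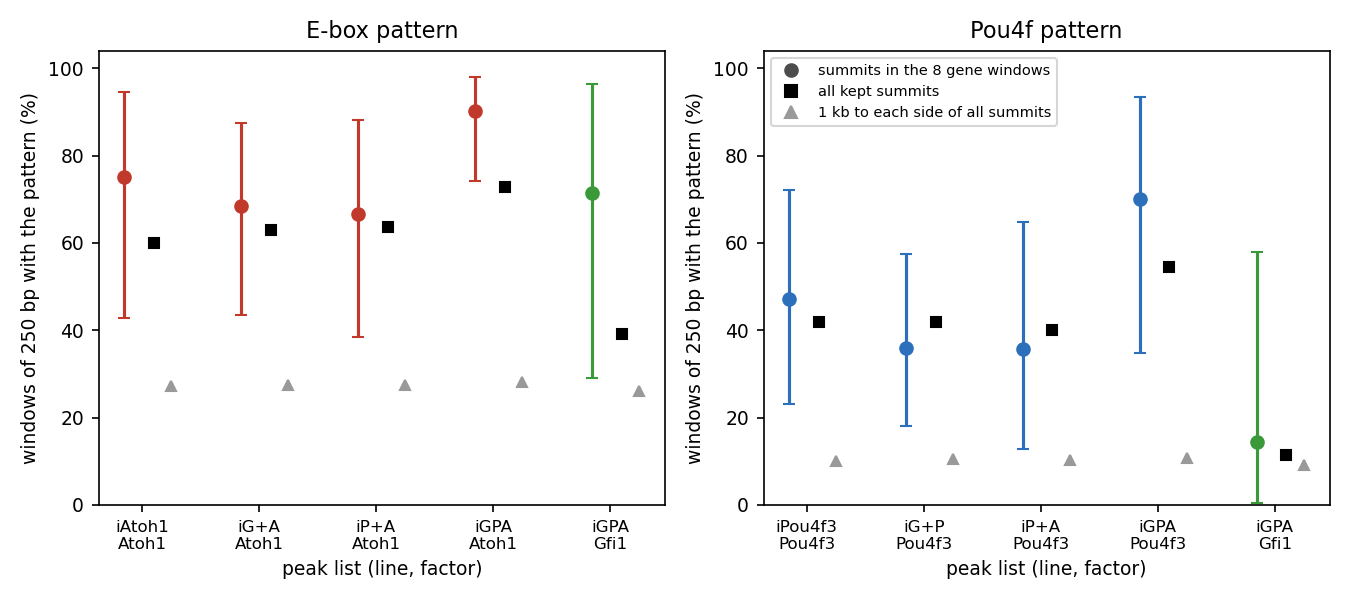
Share of 250 bp windows with CAGATG or CAGCTG (left) and with ATAATTAAT allowing 1 mismatch (right), for summits near the 8 genes (circles with exact 95% intervals), all kept summits of the list (squares) and windows 1 kb to each side of them (triangles). The intervals of the 8 genes take in the value of the whole list in 9 of the 10 comparisons, and the exception is the E-box core in iGPA, 90.3% beside 72.9%.

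Another 14 genes, of the same families or with a name taken from them, were counted in the same way (Insm2, Ikzf1, Ikzf3, Ikzf4, Ikzf5, Tbx1, Tbx3, Tbx4, Tbx5, Rfx5, Rfx6, Rfx8, Rfxank and Rfxap). Atoh1 had a summit at 11 of the 14 in iGPA (72.2% of all gene windows had one), 11 in iP+A (62.7%), 9 in iG+A (65.8%) and 6 in iAtoh1 (53.1%). Pou4f3 had one at 9 in iGPA (63.2%), 7 in iP+A (58.8%), 10 in iG+P (76.7%) and 10 in iPou4f3 (72.8%). Gfi1 had one at 5 (23.2%). Tbx3, a T-box gene, had the most summits over the 9 lists, 32, and Rfxank, a partner of Rfx5 in the expression of MHC class II genes, had 28. Rfx6, a regulator of pancreatic islet cells, had 0 in every list, and Tbx5, a heart and forelimb regulator, had 1. Insm2, the closest relative of Insm1, had 3 summits, beside 9 for Insm1. The window of Tbx4 overlaps that of Tbx2.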

How the data were processed

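The peak lists come from 17 ChIP-seq and 12 input libraries, grouped by sample title. In the study's methods, reads were trimmed by the authors (Trimmomatic), aligned to mm9 (Bowtie 2), and cleared of duplicates (Picard), low mapping quality (SAMtools) and blacklisted regions (BEDTools), and MACS 2 compared merged ChIP with merged input replicates. The deposited fold enrichment is a ratio of fragments to the background used by the peak caller, and the deposited −log10 p is that of the peak caller at the summit. The deposited summit lists hold the peaks that the authors kept, by a filter not given in the sources used here. Total read depth was not used here.

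Fragments were recovered by solving fold and −log10 p for a whole number (tolerance 0.001), for 99.4% to 100% of the kept peaks in each list and for all 150 summits. They gave exact Poisson 95% intervals. Shares have Clopper-Pearson 95% intervals. Both cover counting error only. Background was mostly 5.87 to 8.30 fragments, and 3.55 for Gfi1. Genes were those of GENCODE vM1 (NCBIM37, the same assembly as mm9), whose chromosomes held all peaks. The recovery and the pattern search were tested on simulated data. A tandem repeat was called where 80% of positions in 100 bp equalled the position 1 unit of up to 12 bp further on. Python 3 with NumPy, SciPy and pysam was used. Named sites were, for each gene and factor, the one with the highest fold, and every site in at least 5 lists or in the Gfi1 list, and others named were chosen after their values were seen. The 8 genes and the gene lists were chosen with earlier results of these data known. Alternatives were every called peak, only peaks with −log10 p of 10 or more, windows of 10 or 100 kb, the nearest start, equal list length, site widths of 100 and 1000 bp and other pattern settings.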

Additional observations from a re-analysis of the deposited data

Results flagged for a closer look

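Of the 168 called peaks near the 8 genes, 18 were not in the authors' summit lists (10.7%, beside 24% of all called peaks), and they are outside the counts above. They included Atoh1 peaks near Rfx1, 46.6 to 46.7 kb from its start, with a fold of 3.3 in iAtoh1, 3.47 in iG+A and 3.2 in iGPA, at a site where Pou4f3 in iG+P was kept with 3.5. Another was an Atoh1 peak in iG+A with 3.07, at the Gfi1 site downstream of Insm1. Of the 24 Pou4f3 peaks called near the 8 genes in iPou4f3, 7 were left out, the most of any list and 29.2% beside 16.2% of the whole list, and 3 of them were near Tbx2.

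The count of kept Pou4f3 summits near the 8 genes differed in opposite directions between lines with and without Gfi1 in the cassette. It was higher by 8 in iG+P than in iPou4f3, and the difference of iGPA minus iP+A was -4. The lists differed in length by 10199 and 1669 summits in the same comparisons, both in favour of the line with Gfi1. The pattern depended on the processing. Among peaks with −log10 p of 10 or more, the line with Gfi1 had 8 summits and the line without it 5 in both comparisons. With all called peaks iG+P had 25 and iPou4f3 24, while iGPA had 10 and iP+A 16. With equal list length iG+P had 13 and iPou4f3 12, while iGPA had 8 and iP+A 12. The difference between these contrasts was not tested, since each list is a single value.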

How the results depend on the processing

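Of 130 values under the alternatives, 74 stayed within 1.5 times the reported count or inside its interval, among them all those with all called peaks and with site widths of 100 and 1000 bp. With −log10 p of 10 or more, the Atoh1 summits were 12 in iGPA, 5 in iP+A, 6 in iG+A and 4 in iAtoh1, the Pou4f3 summits 8 in iGPA, 5 in iP+A, 8 in iG+P and 5 in iPou4f3, so that iGPA no longer had the fewest, and the Gfi1 summits 2. Genes with a summit were then 2 for iAtoh1, 4 for iG+A and 2 for Gfi1, sites 29, Atoh1 sites of iGPA shared with iAtoh1 2 and not shared 10, and sites of Atoh1 and Pou4f3 in iGPA 1. Within 10 kb, summits were 14 in iGPA, 10 in iG+A and 6 in iAtoh1 for Atoh1, 5 in iGPA, 6 in iP+A, 13 in iG+P and 8 in iPou4f3 for Pou4f3, and 4 for Gfi1, genes with Pou4f3 4 in iPou4f3 and 3 in iP+A, sites 41, shared 5, not shared 9, and with both factors 1. Within 100 kb, summits were 24 in iP+A and 59 in iGPA for Atoh1, and 21, 23, 39 and 27 for Pou4f3 in iGPA, iP+A, iG+P and iPou4f3. Where the nearest start had to be the gene's own, summits were 8, 3, 5 and 2 for Atoh1 in iGPA, iP+A, iG+A and iAtoh1, 4, 5, 13 and 7 for Pou4f3 in iGPA, iP+A, iG+P and iPou4f3, and 3 for Gfi1. Genes were then 5, 3, 3 and 2 for Atoh1 in the same order, 4 in iPou4f3, 3 in iP+A and 3 in iGPA for Pou4f3, and 2 for Gfi1. Equal list length gave 17 Atoh1 summits in iGPA and 13 Pou4f3 summits in iG+P, with Gfi1 left out. The E-box core alone in place of AtEAM gave 77.9%, and the Pou4f pattern with no mismatch 13.6%. These settings count fewer or more peaks by their construction. No paired analysis was possible because replicates were merged before peak calling.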
